A study of Mus musculus with 48 samples.

Results

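The aryl hydrocarbon (Ah) receptor, its DNA-binding partner, its repressors and its classical cytochrome P450 targets were followed in kidney slices of C57BL/6J and DBA/2J mice kept outside the body. The genes are Ahr, Arnt, Ahrr, Tiparp, Cyp1a1 and Cyp1b1. They were taken by name, as the rows of the raw count table whose Ensembl identifiers map to these mouse symbols, and make up 6 of its 55487 genes. RNA-seq was performed on 48 libraries of male kidney in 16 groups of 3, both strains under each of 8 conditions. Of these, 6 combine the times of 6 h and 24 h with no agent (control), tunicamycin or cyclosporin A, and the other two are normoxia and normoxia-hyperoxia. The labels call the normoxia slices an ischemia model and the normoxia-hyperoxia slices a reperfusion model, and their titles give 24 h for both. All groups are of 2 inbred strains, and the agents and oxygen levels were applied to the slices. Doses, animal age, the time of the switch to hyperoxia and the oxygen that control slices received are not given in the sources used here. Nor do these say whether libraries of a group came from separate mice, so p-values measure the spread between these libraries, which may be technical. The oxygen slices carry no controls of their own, and their titles place them in another part of the study than the control slices they are set against below.

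The Ah receptor is a transcription factor of the bHLH-PAS family that waits in the cytosol in a complex with Hsp90, Ptges3 and Src. A ligand, such as a planar aromatic pollutant or a tryptophan metabolite, sends it to the nucleus, where it pairs with Arnt and binds DNA elements with the core GCGTG. Cyp1a1 and Cyp1b1 encode monooxygenases that oxidise such ligands and are its best known targets. Tiparp, an ADP-ribosyltransferase, and Ahrr, which competes for Arnt, are targets that in turn repress the receptor. Arnt is also the partner of the hypoxia-inducible factors Hif1a and Epas1. C57BL/6J carries a high-affinity Ahr allele and DBA/2J a low-affinity one, which is why DBA/2J needs more ligand for the same induction of Cyp1a1. In the kidney the receptor is known for its response to pollutants and to uremic toxins such as indoxyl sulfate.

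The DNA just upstream of the 3 target genes among the 6 that had enough counts to be tested is shown first, since the receptor with Arnt acts through such DNA. Capitals mark GCGTG on either strand. The sequences are those of RefSeq on GRCm38.p6, of the C57BL/6J reference, written 5′ to 3′ on the strand of the gene. Those of Cyp1a1 and Cyp1b1 end 1 base before the RefSeq start. The Cyp1a1 window is chr9:57697363-57697612 on the plus strand, and lies in an intron of a longer annotated transcript of the same gene. That of Cyp1b1 is chr17:79715062-79715311 on the minus strand. For Tiparp it is chr3:65528197-65528409 on the plus strand. It was shortened at its 3′ end to 213 bases to leave out annotated exon, so it ends further from the RefSeq start.
Cyp1a1: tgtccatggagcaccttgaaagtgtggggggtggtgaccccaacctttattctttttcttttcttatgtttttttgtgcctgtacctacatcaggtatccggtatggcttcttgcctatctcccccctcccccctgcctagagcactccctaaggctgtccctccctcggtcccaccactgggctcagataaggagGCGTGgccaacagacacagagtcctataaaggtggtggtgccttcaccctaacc
Cyp1b1: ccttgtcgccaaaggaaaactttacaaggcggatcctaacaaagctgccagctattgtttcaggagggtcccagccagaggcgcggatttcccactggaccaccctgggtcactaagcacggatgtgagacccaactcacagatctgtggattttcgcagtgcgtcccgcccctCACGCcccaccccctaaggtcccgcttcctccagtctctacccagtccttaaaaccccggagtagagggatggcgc
Tiparp: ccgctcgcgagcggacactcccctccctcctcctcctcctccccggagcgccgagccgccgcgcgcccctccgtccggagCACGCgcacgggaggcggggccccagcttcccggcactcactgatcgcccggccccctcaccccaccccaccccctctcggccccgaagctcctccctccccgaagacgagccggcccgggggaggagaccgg
Each window held 1 match, which began 54 bases before the RefSeq start in Cyp1a1, 76 in Cyp1b1 and 170 in Tiparp. These distances are not counted from the end of the shortened Tiparp sequence. The Ahrr window held 3 matches, at 107, 82 and 27 bases, 1 of them within the longer form TNGCGTG. The core GCGTG is short: on either strand it occurred in 28.2% of the 32851 RefSeq promoter windows of 250 bases, and 2.77% held 3 or more matches, overlaps with other motifs not considered. TNGCGTG occurred in 4.1% of them. A match is a description of these letters, not a binding site, and 5 of the 6 genes had an entry in the promoter table.

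In GENCODE M21 coordinates on GRCm38, Ahr (ENSMUSG00000019256) lies at chr12:35497974-35535038, Ahrr (ENSMUSG00000021575) at chr13:74211118-74292331 and Cyp1b1 (ENSMUSG00000024087) at chr17:79701537-79715061, all on the minus strand. Arnt (ENSMUSG00000015522) at chr3:95434388-95497240, Tiparp (ENSMUSG00000034640) at chr3:65528410-65555518 and Cyp1a1 (ENSMUSG00000032315) at chr9:57687928-57703824 are on the plus strand. Levels are given as counts per 1000000 counts of the library (CPM), and between genes only after division by exon length in kb. On that scale the medians over the 48 libraries were 28.6 CPM per kb for Tiparp, 8.99 for Arnt, 3.43 for Cyp1b1, 2.75 for Ahr, 0.517 for Cyp1a1 and 0.0187 for Ahrr. By this median the repressor Tiparp was the most abundant of the 6 transcripts per length, and the repressor Ahrr the least. In C57BL/6J normoxia mean Arnt, at 5.04 CPM per kb, stood above Tiparp at 4.04. In DBA/2J normoxia they stood at 5.13 and 5.15. The antisense pseudogene 4931440P22Rik overlaps Tiparp with at most 67 counts in a library and the lincRNA Gm48236 overlaps Ahr with at most 6. Since the strand setting of the counting is not given in the sources used here, reads of such pairs cannot be told apart.

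**Figure D1:**
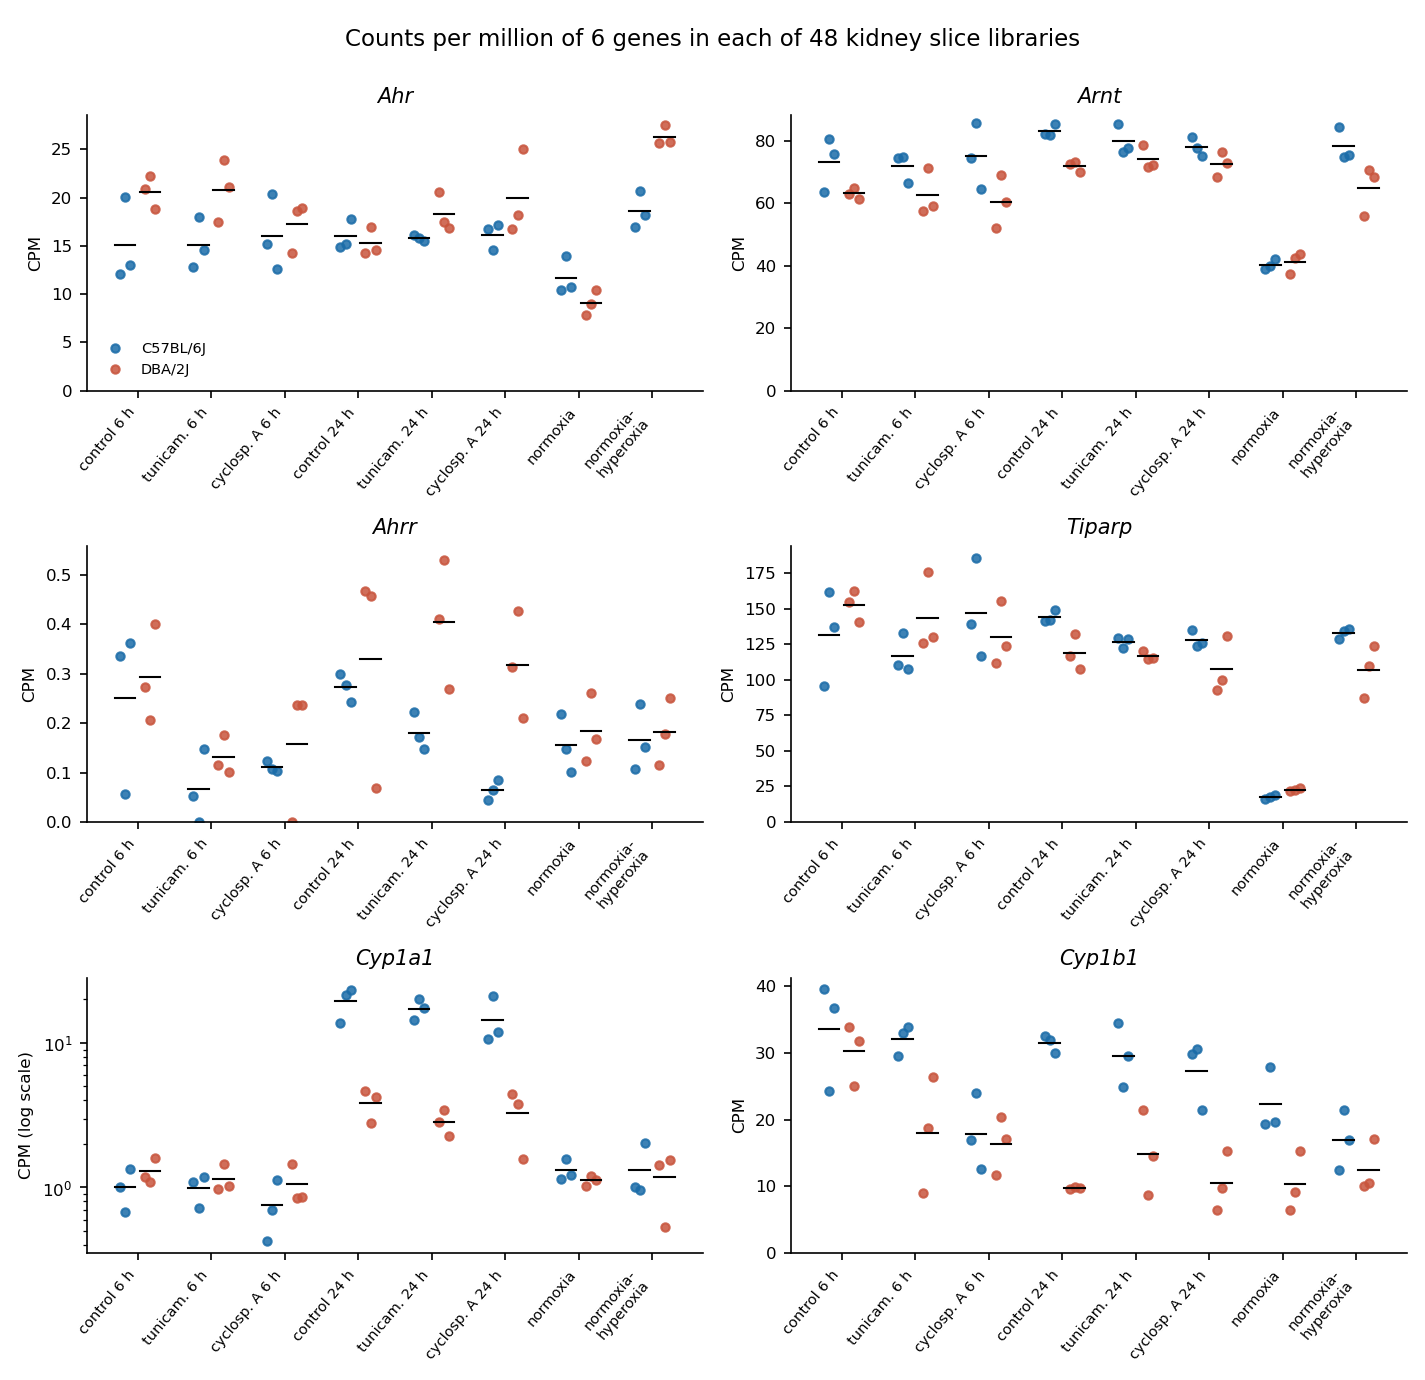
Level of the 6 genes in each of the 48 libraries, in counts per 1000000 (CPM, y axes from 0, log scale for Cyp1a1), by condition on the x axis; points are libraries, blue C57BL/6J and red DBA/2J, and black lines are means of 3. Cyp1a1 stands above 10 CPM in the C57BL/6J control and drug slices at 24 h and in no other group, and Tiparp falls below 25 CPM in normoxia in both strains.

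Libraries held 5619309 to 25137581 counts. The shallowest was DBA/2J normoxia-hyperoxia replicate 2, and the next had 12384733. A count of 3, taken as the least that shows a transcript, corresponds to 0.534 CPM in that library and to at most 0.242 CPM in the other 47. Libraries of a group differed by more than sampling noise, with a chi-square per degree of freedom of at least 5.76. Library composition moved with time and oxygen. The scaling factors of the TMM method were 0.879 to 0.91 in the C57BL/6J controls at 6 h and 1.06 to 1.10 at 24 h, and 0.906 to 0.949 in DBA/2J normoxia, so log2 changes, which use them, can depart from ratios of CPM. Mitochondrial genes took 5.96% to 7.87% of counts in the 24 h controls of C57BL/6J and 3.39% to 3.6% in those of DBA/2J. In 6 h controls they took 14.81% to 16.3% and 8.05% to 8.32%, in normoxia 22.77% to 25.65% and 11.77% to 12.83%, and in normoxia-hyperoxia 12.15% to 16.64% and 10.98% to 17.36%. This share therefore moved with time and oxygen, and its part in the changes below was not tested. Markers of proximal tubule, thick ascending limb, distal tubule, collecting duct, podocytes and endothelium were all detected. In bulk tissue, fewer cells of a type and less RNA per cell cannot be told apart. All tests below are edgeR quasi-likelihood tests with Benjamini-Hochberg adjustment over all genes of the comparison, called at an adjusted p under 0.05, and strain differences in a response are given as DBA/2J minus C57BL/6J.

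Averaged over the strains, the receptor transcript was lower in normoxia and higher in normoxia-hyperoxia than in 24 h controls. Ahr stood at 14.9, 15.2 and 17.8 CPM in the C57BL/6J controls at 24 h and at 14.3, 17 and 14.6 CPM in the DBA/2J ones. In normoxia it was 10.4, 13.96 and 10.7 CPM in C57BL/6J and 7.86, 8.96 and 10.47 CPM in DBA/2J, all 6 below every 24 h control. In normoxia-hyperoxia it was 16.98, 20.7 and 18.2 CPM in C57BL/6J and 25.7, 27.6 and 25.7 CPM in DBA/2J, whose 3 libraries were the highest of all 48. The log2 change from the 24 h controls, averaged over the strains, was -0.33 in normoxia (SE 0.098, edgeR adjusted p = 0.00619) and 0.67 in normoxia-hyperoxia (SE 0.081, edgeR adjusted p = 2.9e-06). Over 18 alternatives the normoxia change ran from -0.60 to -0.28 and stayed called. Within C57BL/6J it was -0.23 and not called. Within DBA/2J it was called, but lost in 1 of 12 fits without 1 library (range -0.52 to -0.33, largest edgeR adjusted p = 0.066). The strain difference in this change was not called. Set against normoxia, the normoxia-hyperoxia slices were higher by 0.67 in C57BL/6J and by 1.36 in DBA/2J on the log2 scale. This difference between the strains was 0.68 (SE 0.184, edgeR adjusted p = 0.0194). It was not called without C57BL/6J normoxia replicate 2 (0.55, edgeR adjusted p = 0.0575) or without DBA/2J normoxia replicate 1 (0.60, edgeR adjusted p = 0.0541).

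In the 6 h controls Ahr stood at 12.1, 20.1 and 13.03 CPM in C57BL/6J and at 20.9, 22.2 and 18.8 CPM in DBA/2J. C57BL/6J replicate 2 lay apart from the other two libraries of its group. From 6 h to 24 h of culture the averaged log2 change of Ahr was -0.39 (SE 0.12, edgeR adjusted p = 0.00893), -0.26 without C57BL/6J control 6 h replicate 2. It was -0.59 in DBA/2J (SE 0.169, edgeR adjusted p = 0.00722) and -0.19 in C57BL/6J (SE 0.171, edgeR adjusted p = 0.348). These changes differed by -0.40 (SE 0.24, edgeR adjusted p = 0.512). Scaled by library totals alone, an alternative chosen after seeing the data, the averaged change was -0.17 (edgeR adjusted p = 0.194), while the median of all genes moved from -0.02 to 0.19. The strains' Ahr levels overlapped in 24 h controls and in normoxia. In normoxia-hyperoxia DBA/2J exceeded C57BL/6J by 0.39 on the log2 scale (SE 0.127, edgeR adjusted p = 0.0337), with no overlap of libraries. This call was lost without C57BL/6J normoxia-hyperoxia replicate 1 or 3 or without any of the 3 DBA/2J libraries (0.34 to 0.42, edgeR adjusted p = 0.0553 to 0.119). Beside it, the summed CPM of 4 leukocyte markers, each reaching 1 CPM, was 66.81 to 83.82 in DBA/2J normoxia-hyperoxia and 31.31 to 45.87 in C57BL/6J normoxia-hyperoxia, and was highest in the former of all 16 groups, as Ahr was. The marker sum and Ahr did not run together in C57BL/6J normoxia, where the sum was 40.1 to 44.02 and Ahr 10.4 to 13.96 CPM. The part of leukocytes in the Ahr values was not tested.

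Arnt, the partner, was lower in normoxia than in any other condition. The normoxia libraries held 39.01, 39.96 and 42.1 CPM in C57BL/6J and 37.2, 42.3 and 43.7 CPM in DBA/2J, and every one of the other 42 libraries held at least 51.9 CPM. The 24 h controls held 82.3, 82.0 and 85.2 CPM in C57BL/6J and 72.4, 73.2 and 70.1 CPM in DBA/2J. The averaged log2 change from them was -0.65 in normoxia (SE 0.049, edgeR adjusted p = 3.23e-09) and 0.05 in normoxia-hyperoxia (SE 0.060, edgeR adjusted p = 0.485). Normoxia-hyperoxia exceeded normoxia by 0.95 in C57BL/6J and 0.48 in DBA/2J on the log2 scale. Both differences between the strains, 0.35 for normoxia against 24 h controls (edgeR adjusted p = 0.0241) and -0.46 for normoxia-hyperoxia against normoxia (edgeR adjusted p = 0.022), share the normoxia libraries. Scaled by library totals alone they were 0.23 (edgeR adjusted p = 0.145) and -0.30 (edgeR adjusted p = 0.169). The first was lost without any of 7 single libraries (C57BL/6J control 24 h replicate 3, each DBA/2J control 24 h library, C57BL/6J normoxia replicate 2, DBA/2J normoxia replicates 2 and 3), at 0.21 to 0.34 with edgeR adjusted p = 0.0519 to 0.223. The second was lost without any of 4 (replicate 2 of either strain's normoxia, replicate 1 of either strain's normoxia-hyperoxia), at -0.46 to -0.34 with edgeR adjusted p = 0.0509 to 0.0784.

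Tiparp, the repressor that ADP-ribosylates the receptor, fell in normoxia in both strains. Its level was 142, 142 and 149 CPM in the C57BL/6J controls at 24 h and 116, 132 and 107 CPM in the DBA/2J ones. In normoxia it was 16.1, 17.5 and 19.2 CPM in C57BL/6J and 21.7, 22.2 and 23.5 CPM in DBA/2J, and the lowest of the other 42 libraries held 87.1 CPM. Mean CPM was thus 8.19 times lower than in 24 h controls in C57BL/6J and 5.29 times lower in DBA/2J. In normoxia-hyperoxia it was 129, 134 and 136 CPM in C57BL/6J and 87.1, 109 and 124 CPM in DBA/2J, levels that overlapped the 24 h controls in DBA/2J and lay just below them in C57BL/6J.

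The averaged log2 change of Tiparp from 24 h controls was -2.45 in normoxia (SE 0.062, edgeR adjusted p = 1.17e-14) and 0.03 in normoxia-hyperoxia (SE 0.075, edgeR adjusted p = 0.719). The fall in normoxia was -2.82 in C57BL/6J and -2.07 in DBA/2J on the log2 scale. The difference of 0.74 was called (SE 0.12, edgeR adjusted p = 0.000906), though at 0.67 it missed the threshold in a fit of all 48 libraries (edgeR adjusted p = 0.0536). In normoxia itself DBA/2J exceeded C57BL/6J by 0.42 (edgeR adjusted p = 0.00608) and in normoxia-hyperoxia it stood lower by 0.41 (edgeR adjusted p = 0.00838), and the 6 libraries of each condition did not overlap between the strains. In the fit of all 48 libraries these were 0.34 (edgeR adjusted p = 0.0997) and -0.40 (edgeR adjusted p = 0.0609). At 6 h the controls held 95.8, 162 and 137 CPM in C57BL/6J and 155, 162 and 141 CPM in DBA/2J. The averaged change from 6 h to 24 h, -0.33 (SE 0.106, edgeR adjusted p = 0.012), was -0.11 with library totals alone (edgeR adjusted p = 0.329). Within DBA/2J this change was called, also in all 18 alternatives (-0.59 to -0.36). Within C57BL/6J it was not called and ran from -0.31 to 0.13 over them. The strain difference in this change was not called.

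Ahrr, the other repressor, was barely detected. It had 0 to 7 counts in C57BL/6J libraries and 0 to 12 in DBA/2J ones, at most 0.531 CPM. In 23 of the 48 libraries it stood at 3 counts or fewer, and in 2 of them at 0, which allows up to 3 counts. It passed the filter on low counts in no comparison, so edgeR tested no change in it. DESeq2, run without that filter, called 4 members in the strain difference averaged over the 8 conditions, beside 3 by edgeR. The added call was Ahrr, whose mean CPM was higher in DBA/2J in each condition. In the order of its 16 groups the libraries of all neighbours overlapped. Between the strains they did not overlap with either drug at 24 h. Ahrr then held 9, 12 and 5 counts in DBA/2J (0.269 to 0.531 CPM) against 5, 4 and 2 in C57BL/6J (0.147 to 0.223 CPM) with tunicamycin. With cyclosporin A it held 6, 9 and 4 counts (0.211 to 0.428 CPM) against 1, 1 and 2 (0.0442 to 0.0848 CPM). These few counts were not tested within a condition by edgeR.

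Cyp1a1, the most ligand-responsive of the targets, rose with time in culture, and rose further in C57BL/6J than in DBA/2J. At 6 h the controls held 1.01, 0.676 and 1.34 CPM in C57BL/6J (12 to 26 counts) and 1.19, 1.09 and 1.60 CPM in DBA/2J. At 24 h they held 13.6, 21.4 and 23.2 CPM in C57BL/6J (274 to 462 counts) and 4.63, 2.79 and 4.195 CPM in DBA/2J (55 to 89 counts). The libraries of the 2 times did not overlap in either strain, and mean CPM rose 19.2 times in C57BL/6J and 3.00 times in DBA/2J. The log2 change was 3.97 in C57BL/6J (SE 0.29, edgeR adjusted p = 6.1e-08) and 1.43 in DBA/2J (SE 0.295, edgeR adjusted p = 0.000727). The difference between these changes was -2.54 (SE 0.425, edgeR adjusted p = 0.0123), and -2.37 without DBA/2J control 6 h replicate 3 (edgeR adjusted p = 0.0548).

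The drug slices at 24 h showed the same order. Cyp1a1 stood at 14.4, 19.99 and 17.4 CPM with tunicamycin and at 10.6, 20.99 and 11.9 CPM with cyclosporin A in C57BL/6J, and at 2.83, 3.45 and 2.26 CPM and at 4.44, 3.81 and 1.58 CPM in DBA/2J. All 9 C57BL/6J libraries lay above all 9 DBA/2J libraries at 24 h. The ratio of mean CPM of C57BL/6J to DBA/2J was 5.01 in controls, 6.07 with tunicamycin and 4.42 with cyclosporin A. The strain difference was -2.35 on the log2 scale in 24 h controls (SE 0.249, edgeR adjusted p = 1.08e-05), -2.64 with tunicamycin (edgeR adjusted p = 5.52e-06) and -2.21 with cyclosporin A (edgeR adjusted p = 0.00176). At 6 h it was 0.19 in controls (edgeR adjusted p = 0.731). Beside this, the summed CPM of 3 adrenal cortex markers was 19.9 in the C57BL/6J and 3.99 in the DBA/2J controls at 24 h, against 4.24 and 1.24 at 6 h. It was carried by Star, while the adrenal enzymes Cyp11a1 and Cyp11b1 reached at most 0.304 and 0.0946 CPM in any library. The part of adrenal tissue in the Cyp1a1 values was not tested.

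In both oxygen conditions, also labelled 24 h, Cyp1a1 was far below the 24 h controls and overlapped the 6 h slices. Normoxia libraries held 1.14, 1.58 and 1.22 CPM in C57BL/6J and 1.02, 1.199 and 1.14 CPM in DBA/2J. Normoxia-hyperoxia libraries held 1.01, 0.955 and 2.02 CPM in C57BL/6J and 1.44, 0.534 and 1.56 CPM in DBA/2J, where 0.534 CPM is 3 counts in the shallowest library. All 12 lay below the DBA/2J controls at 24 h. The averaged log2 change from 24 h controls was -2.56 in normoxia (SE 0.179, edgeR adjusted p = 1.53e-09) and -2.53 in normoxia-hyperoxia (SE 0.237, edgeR adjusted p = 2.69e-07). The strains differed in the fall by 2.201 in normoxia (SE 0.37, edgeR adjusted p = 0.00123) and by 2.30 in normoxia-hyperoxia (SE 0.488, edgeR adjusted p = 0.0339), the higher 24 h controls of C57BL/6J entering both. The second was lost without C57BL/6J control 24 h replicate 2 or 3, DBA/2J control 24 h replicate 3, C57BL/6J normoxia-hyperoxia replicate 1 or 2, or DBA/2J normoxia-hyperoxia replicate 1 or 3 (2.10 to 2.38, edgeR adjusted p = 0.0544 to 0.112). Between the strains the log2 difference was -0.16 in normoxia (edgeR adjusted p = 0.735) and -0.11 in normoxia-hyperoxia (edgeR adjusted p = 0.855). Against the 6 h controls it was 0.10 in normoxia (edgeR adjusted p = 0.69) and 0.17 in normoxia-hyperoxia (edgeR adjusted p = 0.668), with few counts behind each value.

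**Figure D2:**
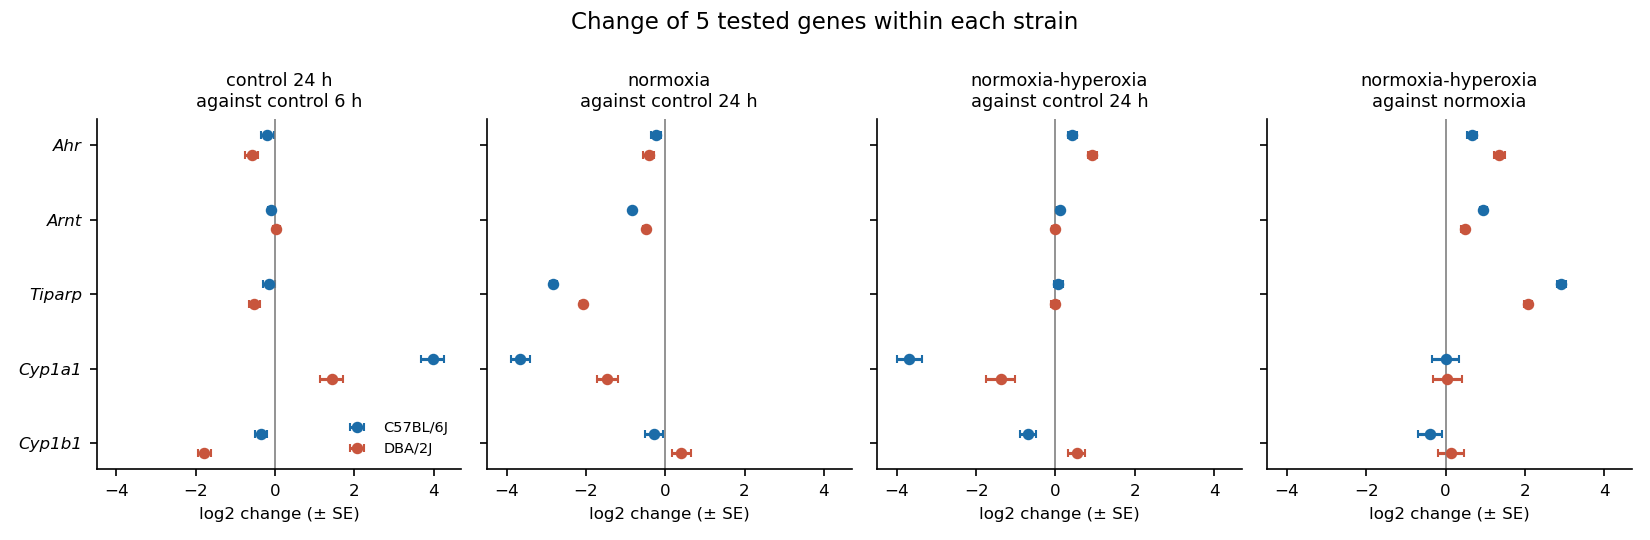
Log2 change of the 5 tested genes in each strain (x axes, error bars 1 SE from edgeR) for 4 comparisons; blue is C57BL/6J and red DBA/2J. Cyp1a1 moves furthest in C57BL/6J, by 3.97 with time, -3.66 in normoxia and -3.68 in normoxia-hyperoxia, and Tiparp changes in normoxia by -2.82 in C57BL/6J and -2.07 in DBA/2J.

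Cyp1b1, a P450 of mesenchymal and vascular cells that also oxidises estrogens, showed another pattern, a fall over time that was larger in DBA/2J. At 6 h the controls held 39.6, 24.3 and 36.7 CPM in C57BL/6J and 33.9, 25.1 and 31.8 CPM in DBA/2J. At 24 h they held 32.5, 31.9 and 29.96 CPM in C57BL/6J and 9.68, 9.89 and 9.74 CPM in DBA/2J. The C57BL/6J libraries overlapped between the times, and all DBA/2J libraries at 24 h lay below those at 6 h. The log2 change was -1.79 in DBA/2J (SE 0.16, edgeR adjusted p = 4.36e-07). In C57BL/6J it was -0.36 (SE 0.149), at an edgeR adjusted p just under the threshold that rounds to 0.05, and 10 of the 12 fits without 1 library lost that call (range -0.51 to -0.20). Of all 18 alternatives 15 lost it, with log2 changes from -0.51 to -0.09 over the 18. The difference between the strains was -1.43 (SE 0.218, edgeR adjusted p = 0.00627), and -1.42 in a fit of all 48 libraries (edgeR adjusted p = 0.14).

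Mean Cyp1b1 in the 24 h controls was 3.22 times higher in C57BL/6J, a log2 difference of -1.72 (SE 0.16, edgeR adjusted p = 3.02e-06). With tunicamycin at 24 h, 34.4, 24.8 and 29.5 CPM in C57BL/6J stood against 21.5, 8.68 and 14.6 CPM in DBA/2J. With cyclosporin A it was 29.8, 30.5 and 21.4 CPM against 6.43, 9.75 and 15.2 CPM. No libraries of the strains overlapped under either drug, and the log2 differences were -1.05 (edgeR adjusted p = 0.0102) and -1.47 (edgeR adjusted p = 0.000784). In normoxia 19.4, 27.8 and 19.7 CPM stood against 6.51, 9.22 and 15.4 CPM, a difference of -1.04 (edgeR adjusted p = 0.0192) that missed the threshold without C57BL/6J normoxia replicate 2 (-0.86, edgeR adjusted p = 0.0776) or DBA/2J normoxia replicate 1 (-0.80, edgeR adjusted p = 0.0683) or 2 (-0.96, edgeR adjusted p = 0.0654). In normoxia-hyperoxia 12.4, 21.4 and 16.99 CPM overlapped 9.99, 10.5 and 17.1 CPM.

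Averaged over the strains, Cyp1b1 changed by 0.06 from 24 h controls in normoxia (edgeR adjusted p = 0.733) and by -0.08 in normoxia-hyperoxia (edgeR adjusted p = 0.643) on the log2 scale. Behind the second lay -0.70 in C57BL/6J (edgeR adjusted p = 0.00784) and 0.54 in DBA/2J (edgeR adjusted p = 0.0452), the latter 0.21 without DBA/2J normoxia-hyperoxia replicate 3 (edgeR adjusted p = 0.392). The DBA/2J call was lost in 8 of 12 fits without 1 library, with library totals alone (0.39, edgeR adjusted p = 0.129) and in the fit of all 48 libraries (0.54, edgeR adjusted p = 0.191). The C57BL/6J call was lost in the fit of all 48 (-0.69, edgeR adjusted p = 0.069). The difference between the strains, 1.23 (SE 0.29), had an edgeR adjusted p of 0.054. It was called in 6 of 18 alternatives, with values from 0.91 to 1.45 over the 18. The summed CPM of 3 fibroblast and mural markers moved beside Cyp1b1 in part: it was 171 in C57BL/6J and 161 in DBA/2J controls at 6 h, 114 and 113 with cyclosporin A at 6 h, 94.6 and 69.5 in controls at 24 h, 114 and 45.4 in normoxia and 132 and 94.3 in normoxia-hyperoxia. With tunicamycin at 24 h it went the other way than Cyp1b1, at 95.4 in C57BL/6J and 113 in DBA/2J (58.63 to 182.3), and with cyclosporin A at 24 h it was 96.5 and 82.5. The summed CPM of 4 endothelial markers was 1170 in C57BL/6J and 733 in DBA/2J controls at 24 h, 1134 and 698 with tunicamycin, 1204 and 729.7 with cyclosporin A and 586 and 348 in normoxia, but 1018 and 1071 in normoxia-hyperoxia. In 6 h controls, where Cyp1b1 overlapped between the strains, it was 1049 and 731. The part of these cell types in the Cyp1b1 values was not tested.

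Neither drug gave a called change in any of the 5 genes, in the average of the strains or within either strain. Values in this paragraph are averages over the strains unless a strain is named. With tunicamycin, an inhibitor of N-glycosylation that stresses the endoplasmic reticulum, 0 of 5 were called at 6 h beside 0.0% of 16551 genes, with log2 changes from -0.40 to 0.01. No member had an unadjusted p under 0.05 there, and DESeq2 called 0. Within DBA/2J 1 member had one, with log2 changes from -0.72 to 0.04. At 24 h tunicamycin gave 0 of 5 beside 1.38% of 16905 genes, with log2 changes from -0.29 to 0.26. Again 0 had an unadjusted p under 0.05 and DESeq2 called 0. Within the strains 1 member in C57BL/6J and 2 in DBA/2J had an unadjusted p under 0.05. The log2 changes there ran from -0.20 to -0.02 and from -0.41 to 0.62. With cyclosporin A, a calcineurin inhibitor known for its kidney toxicity, 0 of 5 were called at 6 h beside 0.0% of 16538 genes and 0 of 5 at 24 h beside 0.0% of 16887. In each of these 1 gene had an unadjusted p under 0.05. DESeq2 called 1 at 6 h and 0 at 24 h. The strain differences of the drug responses were called for 0 of 5 genes and for 0.0% of all genes in each of the 4 comparisons, with 0 members at an unadjusted p under 0.05 and 0 called by DESeq2.

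The gene DESeq2 called was Cyp1b1. With cyclosporin A at 6 h it stood at 17.02, 23.9 and 12.6 CPM in C57BL/6J and at 11.7, 20.4 and 17.1 CPM in DBA/2J, in both strains below all 3 controls. The averaged log2 change was -0.86 (SE 0.19, edgeR adjusted p = 0.457), and -0.86 with a DESeq2 adjusted p of 0.00577. Over all 16538 genes 734 had an unadjusted p under 0.05 in this comparison. Cyp1a1 changed by -0.29 with tunicamycin and by -0.35 with cyclosporin A at 24 h, against standard errors of 0.168 and 0.26.

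Read by comparison, most genes of the tissue moved with time and oxygen, and the counts of members have to be read against that. From 6 h to 24 h, 4 of 5 changed in the average of the strains beside 72.0% of 16962 genes, 2 of 5 in C57BL/6J beside 61.5% and 4 of 5 in DBA/2J beside 62.0%. The strains differed in this response for 2 of 5, Cyp1a1 and Cyp1b1, beside 0.69% of all genes. Normoxia against 24 h controls changed 4 of 5 beside 82.0% of 17375 genes, with a strain difference in 3 of 5 beside 17%. Normoxia-hyperoxia against the same controls changed 2 of 5 beside 68.2% of 17256 genes, with a strain difference in 1 of 5 beside 1.43%. Normoxia-hyperoxia against normoxia changed 3 of 5 beside 73.5% of 17228 genes, with a strain difference in 3 of 5 beside 18.2%.

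Set against the 6 h controls and averaged over the strains, normoxia changed 4 of 5 beside 65.8% of 16819 genes. Tiparp changed by -2.82, Cyp1b1 by -1.05, Ahr by -0.76 and Arnt by -0.72 on the log2 scale (largest edgeR adjusted p = 0.000395). Within the strains, Tiparp and Arnt were called in both, and Cyp1b1 and Ahr in DBA/2J but not in C57BL/6J. Normoxia-hyperoxia changed 1 of 5 beside 44.9% of 16841 genes, Cyp1b1 by -1.13 (edgeR adjusted p = 0.000215). The strains differed in 0 of 5 responses in each, beside 3.66% and 0.232% of all genes. For normoxia 2 had an unadjusted p under 0.05, for normoxia-hyperoxia 0, and DESeq2 called 0 in both. The comparisons with 24 h and with 6 h controls share the oxygen libraries, and those of time, normoxia and normoxia-hyperoxia share the 24 h controls.

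Between the strains, Cyp1a1 and Cyp1b1 carried the largest differences, both lower in DBA/2J. Averaged over the 8 conditions, 3 of 5 genes differed beside 64.0% of 18719 genes: Cyp1b1 by -0.92 (SE 0.116, edgeR adjusted p = 1.67e-08), Cyp1a1 by -0.87 (SE 0.129, edgeR adjusted p = 2.72e-07) and Arnt by -0.26 (SE 0.036, edgeR adjusted p = 4.03e-08). With counts summed per strain and replicate number the Cyp1a1 value was -1.87, since the 24 h slices then weigh most. Ahr differed by 0.11 (edgeR adjusted p = 0.104) and Tiparp by -0.12 (edgeR adjusted p = 0.0526, and 0.0329 with a replicate block). Over 54 alternatives Ahr ran from 0.09 to 0.20 and was called in 3. Tiparp ran from -0.15 to -0.03 and was called in 11.

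By condition, 1 of 5 genes differed in 6 h controls beside 26.2% of all genes, Arnt by -0.36 (edgeR adjusted p = 0.00915). With tunicamycin at 6 h it was 1 beside 24.0%, Cyp1b1 by -0.94 (edgeR adjusted p = 0.0306), a call lost in 6 of 12 fits without 1 library (range -1.30 to -0.63). In these slices the summed CPM of the fibroblast and mural markers was 170.1 in C57BL/6J (149.2 to 189.6) and 117.1 in DBA/2J (73.55 to 156.4), and that of the endothelial markers 997.1 (833.2 to 1147) and 745.9 (672.2 to 783.9), and their part in this difference was not tested. With cyclosporin A at 6 h it was 1 beside 32.6%, Arnt by -0.47 (edgeR adjusted p = 0.0196), lost without C57BL/6J replicate 2 (-0.35), DBA/2J replicate 1 (-0.37) or DBA/2J replicate 3 (-0.47) of that condition. With library totals alone none of these 3 was called, and the median of all genes stood 0.105 to 0.165 above 0. In 24 h controls 2 of 5 differed beside 22.2%, and with tunicamycin at 24 h 2 beside 18.6%, in both the pair of P450 genes. With cyclosporin A at 24 h 4 differed beside 20.7%, the same pair with Tiparp at -0.34 and Arnt at -0.20, and the calls of Tiparp and Arnt were each lost in 9 of 12 fits without 1 library. In normoxia 2 differed beside 46.8%, Cyp1b1 and Tiparp, and in normoxia-hyperoxia 3 beside 25.7%, Ahr, Arnt at -0.37 (edgeR adjusted p = 0.00778) and Tiparp.

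**Figure D3:**
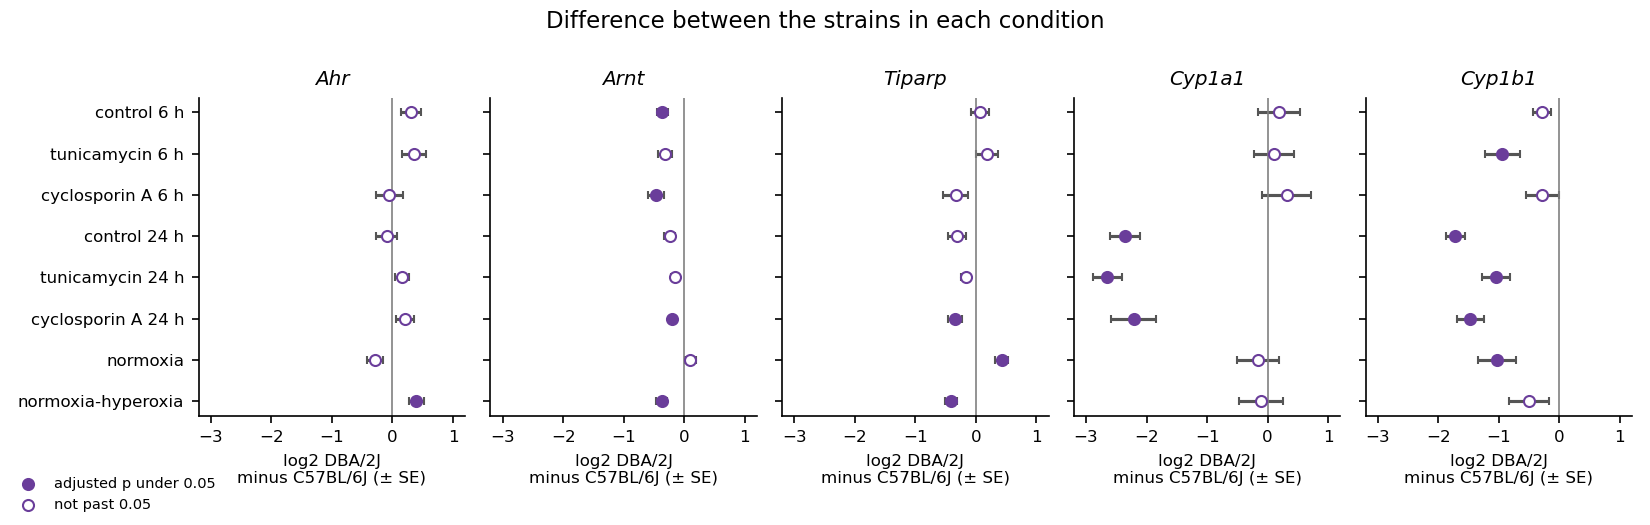
Log2 difference of DBA/2J from C57BL/6J (x axes, error bars 1 SE from edgeR) of the 5 tested genes in each of the 8 conditions (y axis); filled points have an adjusted p under 0.05. Cyp1a1 lies between -2.64 and -2.21 in the 3 conditions of 24 h drug and control slices and between -0.16 and 0.31 in the other 5, and Cyp1b1 is below 0 in all 8.

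Ordered by mean CPM over the 16 groups, few neighbours could be told apart by their libraries. For Cyp1a1 the libraries of neighbouring groups did not overlap at 2 of 15 steps, 1 between the 3 C57BL/6J groups of 24 h drug and control slices and the 3 DBA/2J ones, and 1 between DBA/2J tunicamycin at 24 h and C57BL/6J normoxia-hyperoxia. The second does not part all groups on either side, since DBA/2J cyclosporin A 24 h replicate 3, at 1.58 CPM, lay below single libraries of 3 lower groups. Tiparp had 2 such steps, which set off DBA/2J normoxia and then C57BL/6J normoxia at the bottom. Ahr had 1, below DBA/2J normoxia-hyperoxia at the top, and Arnt had 1, above both normoxia groups. Cyp1b1 and Ahrr had 0.

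Other genes of the pathway were taken from 4 lists. Of 12 further targets of the receptor, 11 were tested from 6 h to 24 h, 4 rose and 3 fell, beside 72.0% of all genes called in either direction, with a median log2 change of 0.26 beside -0.02 for all genes. Among those that rose were Nqo1, a quinone reductase, by 2.51, with means of 23.4 CPM at 6 h and 185 CPM at 24 h in C57BL/6J against 20.6 and 114 CPM in DBA/2J, and the glutathione transferase Gsta1 by 6.03. Ugt1a6a and Ugt1a6b, glucuronosyltransferases that share exons so that their counts are uncertain, fell by 1.54 and 1.56. In normoxia against 24 h controls 2 of 10 tested rose and 7 fell beside 82.0% of all genes called, with a median of -1.55 beside 0.05. Slc7a5, an amino acid transporter, fell by 5.04, and the Ugt1a6a and Ugt1a6b values were 2.51 and 2.53. In normoxia-hyperoxia against 24 h controls 2 of 11 rose and 8 fell beside 68.2% of all genes called, with a median of -1.08 beside 0.00. Socs2, a feedback inhibitor of cytokine signalling, rose by 1.25, Nfe2l2, the oxidant-responsive factor Nrf2, rose by 0.19, and Nqo1 and Ugdh, which makes UDP-glucuronate, fell by 2.60 and 2.13. Gsta1, whose close relatives make its counts uncertain, had 37.97 and 40.6 CPM in the 24 h controls of C57BL/6J and DBA/2J and 0.0797 and 0.149 CPM in normoxia, where no C57BL/6J library held more than 3 counts. Ereg, a growth factor, had 0 counts in all oxygen libraries, at least 5.14-fold (C57BL/6J) and 22.02-fold (DBA/2J) lower in normoxia than in 24 h controls, with 3 counts per library as the floor. The medians given were the same with such genes set at their bound. Cyp1a2, the liver member of the family, was at or under 3 counts in almost all libraries.

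**Figure D4:**
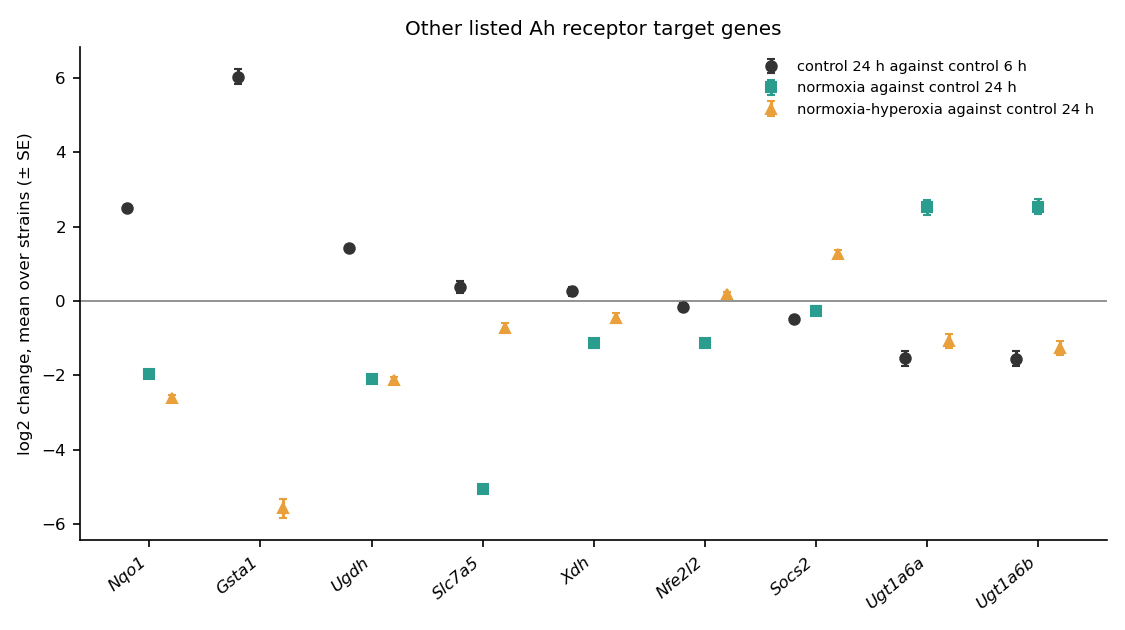
Log2 change averaged over the strains (y axis, error bars 1 SE from edgeR) of other Ah receptor target genes in 3 comparisons that share the 24 h controls; genes at the floor of 3 counts in a group are left out. Nqo1, like Cyp1a1, is up with time by 2.51 and down in both oxygen conditions, while Ugt1a6a and Ugt1a6b go the other way in time and normoxia.

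Genes of the receptor's cytosolic complex are given singly and do not stand for the complex as a whole. Hsp90aa1, the inducible Hsp90, changed by -0.28 with time, by -2.25 in normoxia and by 0.98 in normoxia-hyperoxia against 24 h controls. The kinase Src rose by 1.28 with time and fell by 1.85 in normoxia, and the cochaperone Ptges3 rose by 0.66 with time. In normoxia-hyperoxia Hsp90ab1, the constitutive Hsp90, rose by 0.58, and Src and Ptges3 fell by 1.24 and 0.30.

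Of 9 bHLH-PAS relatives 1 rose and 5 fell with time beside 72.0% of all genes called, with a median of -0.23 beside -0.02. Among them Epas1 fell by 1.75 and Sim1, best known from the hypothalamus, by 1.61, and Clock, a circadian factor, rose by 0.21. In normoxia against 24 h controls 3 of 9 rose and 2 fell beside 82.0%, with a median of 0.16 beside 0.05. Sim1 rose by 1.86, as did Npas2, a relative of Clock, by 1.86, while Hif1a fell by 1.31 and Clock by 0.45. In normoxia-hyperoxia against 24 h controls 5 of 8 rose and 1 fell beside 68.2%, with a median of 0.53 beside 0.00. Epas1 rose by 1.44 and Sim1 by 2.05, and Clock fell by 0.54.

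The enzymes of tryptophan breakdown, which yield ligands of the receptor, mostly fell with time and rose in normoxia. From 6 h to 24 h 1 of 8 tested rose and 7 fell beside 72.0% of all genes called, with a median of -1.71 beside -0.02. In normoxia against 24 h controls 7 of 8 rose and 1 fell beside 82.0%, with a median of 2.92 beside 0.05. The kynurenine aminotransferase Kyat1 fell by 2.11 with time and rose by 2.81 in normoxia, Kyat3 fell by 1.57 and rose by 2.41. Il4i1, an amino acid oxidase of immune cells, went the other way, by 1.36 and -2.32. In normoxia-hyperoxia against 24 h controls 2 of 7 rose, Kyat3 by 1.41 and Kyat1 by 1.34, and Il4i1 fell by 0.95, beside 68.2% of all genes called and with a median of 0.36 beside 0.00. The summed CPM of 4 proximal tubule markers moved alongside with time and in normoxia, at 3313 (C57BL/6J) and 5495 (DBA/2J) in 6 h controls, 448 and 1320 in 24 h controls and 5435 and 11230 in normoxia. In normoxia-hyperoxia it did not, at 139 and 603, below the 24 h controls while Kyat1 and Kyat3 were above them. Its part in the enzymes' changes was not tested. With the drugs, averaged over the strains, Slc7a5 was called among the further targets, by 0.22 with tunicamycin at 24 h (edgeR adjusted p = 0.047).

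Between the strains, averaged over the 8 conditions, 3 of 11 further targets were higher in DBA/2J and 5 lower beside 64.0% of all genes called, with a median of 0.03 beside 0.01. Ugt1a6b and Ugt1a6a differed by 1.06 and 0.97, Nfe2l2 by -0.73 and Nqo1 by -0.54. Of the cytosolic complex, Hsp90aa1 differed by -0.66 and Hsp90ab1 by -0.39. Of the bHLH-PAS relatives 2 of 9 were higher and 5 lower beside the same 64.0%, with a median of -0.09. The higher ones were Npas2 at 0.85 and Hif3a, a relative of Hif1a, at 0.92, and the lower ones included Sim1 at -0.60 and Epas1 at -0.25. Of the tryptophan enzymes 6 of 9 were higher and 2 lower beside 64.0%, with a median of 0.68. Afmid, the kynurenine formamidase, stood at 1.24 and Kyat1 at 0.75, and the lower ones were Ido1, which opens the pathway and had few counts, at -1.13 and Il4i1 at -0.22. The adjusted p of every gene called in the lists was under 0.05 by edgeR.

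The genes whose 16 group means on the log2 CPM scale ran most like a member were picked by Pearson's r among 18719 genes, as a description over groups that share strain, time and depth. For Cyp1a1 they were Sprr2i (r = 0.973), Trdc (0.960) and Riox2 (0.956). For Tiparp they were Bcl2l1 (0.987), Slc2a1 (0.981) and Gadd45a (0.980), for Arnt Scyl2 (0.986), Ppp2r2d (0.977) and Sf3b1 (0.974), for Ahr Slco4a1 (0.942), Ptafr (0.942) and Dusp2 (0.937), and for Cyp1b1 Loxl1 (0.886), Cacng7 (0.876) and Meis1 (0.876). Among the members themselves Arnt and Tiparp ran closest (r = 0.868), followed by Ahr and Tiparp (r = 0.670).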

How the data were processed

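Per the labels' protocols, RNA of the 48 kidney slice samples was isolated by Qiagen midi kit, and Illumina's ligation protocol for stranded mRNA gave the libraries. The authors deposited a table of raw counts per Ensembl gene without normalization. The submitters' processing notes name bcl2fastq 2.20.0, FastQC 0.11.8, STAR 2.7.9a, featureCounts 1.5.1 and GRCm38. The annotation release, strand setting and filters are not given in the sources used here. Reads of DBA/2J meet the C57BL/6J reference there, and the effect of this on the counts was not tested. Of 55487 identifiers 55141 matched a symbol.

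Groups were taken from the strain and treatment labels. For each pair of conditions the 12 libraries in question (4 groups, strain by condition) were fitted with edgeR 4.0.16 (R 4.3.3; TMM scaling, filterByExpr, robust quasi-likelihood F test, Benjamini-Hochberg adjustment), giving the mean over strains, the interaction and the change or difference within each strain and condition. The mean strain difference used all 48. SE is the log2 change divided by the square root of F. CPM are counts per 1000000 counts of the library. The fit was tested on simulated data. Alternatives were DESeq2 1.42.0, its size factors in edgeR, no filter, all 48 libraries in 1 fit, a replicate block, leaving out each library, and library totals in place of TMM, the last chosen after seeing the data. The members, the pathway lists and the tests were chosen with earlier results of these data known. All 6 members are described, and of each list the 2 genes per direction with the smallest p among those called are named in the averaged comparisons of time, of either oxygen condition with 24 h controls and of strain, plus Gsta1, Ereg and Cyp1a2, which lie at the count floor in some groups and were added after their values were seen. Same-numbered libraries were taken as pairs only if the deviations of every pair correlated above 0.1, which held in no comparison (mean correlation 0.0052 to 0.24). Normoxia against 6 h controls came closest, with all 6 pairs positive and the lowest at 0.0864. Rows of RefSeq promoters and GENCODE M21 gene models were matched by symbol and identifier. A gene of the receptor complex list, and the counts over that list, are not reported here.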

Additional observations from a re-analysis of the deposited data

Results flagged for a closer look

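A difference between the strains in the response to the same change of condition was called by the interaction test of edgeR in 9 cases, each given as DBA/2J minus C57BL/6J on the log2 scale. Cyp1a1 differed by -2.54 from 6 h to 24 h, by 2.201 in normoxia against 24 h controls and by 2.30 in normoxia-hyperoxia against 24 h controls, and these 3 values share the 24 h controls. Cyp1b1 differed by -1.43 from 6 h to 24 h. Tiparp differed by 0.74 in normoxia against 24 h controls and by -0.84 in normoxia-hyperoxia against normoxia, and Arnt by 0.35 and -0.46 in the same comparisons, which share the normoxia libraries. Ahr differed by 0.68 in normoxia-hyperoxia against normoxia. Such a difference was called for 0.69% of all genes with time and 17% in normoxia against 24 h controls. In normoxia-hyperoxia the share was 1.43% against 24 h controls and 18.2% against normoxia. Of 18 alternatives, 10 and 7 lost the Arnt calls, 7 that of Cyp1a1 in normoxia-hyperoxia and 2 that of Ahr. The Tiparp call in normoxia and the Cyp1a1 and Cyp1b1 calls with time were each lost in 1. The other calls stayed in all 18.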

How the results depend on the processing

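The number of members called moved by over 1.5 times, or to or from 0, in 14 of the 29 comparisons and by less in 2 others. With DESeq2's size factors it moved in none of the 29. Counts within a single strain are not among them. Of those, the 2 of 5 in C57BL/6J from 6 h to 24 h includes the Cyp1b1 call that 15 of 18 alternatives lost. Smaller moves are not listed. With library totals only, chosen after seeing the data, the strain difference was called for 0 members (from 1) in 6 h controls and in both drugs at 6 h and for 2 (from 4) with cyclosporin A at 24 h. The interaction of normoxia-hyperoxia with 24 h controls was called for 2 (from 1), also with no filter, with DESeq2 and with a replicate block, and normoxia-hyperoxia against 6 h controls for 2 (from 1). With no filter the calls were 0 for the strain difference with tunicamycin at 6 h, 2 (from 0) for the interaction of normoxia with 6 h controls and 3 for normoxia-hyperoxia against 6 h controls. DESeq2 called 1 with cyclosporin A at 6 h (from 0). In the fit of all 48 libraries the strain difference was called for 2 with tunicamycin at 6 h, 2 with cyclosporin A at 24 h, 1 (from 3) in normoxia-hyperoxia and 1 (from 2) in normoxia, the interaction for 1 (from 2) in time and 1 (from 3) in normoxia, and normoxia-hyperoxia against 6 h controls for 3. The replicate block gave 2 calls for the strain difference with tunicamycin at 6 h and with cyclosporin A at 24 h. It gave 2 for the interaction of normoxia with 6 h controls and 2 for normoxia-hyperoxia against 6 h controls. Beside these and the interaction named above, no count of the 29 comparisons moved by over 1.5 times under it. Under this block the mean strain difference went from 3 calls to 4, with Tiparp added, and with DESeq2 also to 4, with Ahrr added. The numbers are not shown to pair the samples.

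Leaving out 1 library gave 0 to 2 calls for the strain difference with tunicamycin at 6 h, 0 to 1 with cyclosporin A at 6 h, 2 to 4 with cyclosporin A at 24 h and in 24 h controls, 1 to 3 in 6 h controls and in normoxia. It gave 1 to 2 for the interaction in time, 0 to 1 in normoxia-hyperoxia against 24 h controls, 1 to 3 in normoxia-hyperoxia against normoxia and 0 to 2 in normoxia against 6 h controls, and 1 to 2 for normoxia-hyperoxia against 6 h controls.

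The sign of 11 log2 changes, none of them called in the reported fits, turned in some alternative. With library totals only, Arnt with time was 0.19 (edgeR adjusted p = 0.0139), Ahr and Tiparp with time in C57BL/6J 0.084 and 0.13, Cyp1b1 in normoxia against 24 h controls -0.21, and Arnt and Tiparp in normoxia-hyperoxia against them -0.12 and -0.14. Cyp1a1 in normoxia-hyperoxia against normoxia was -0.020 under the replicate block. Leaving out 1 library gave -0.084 to 0.0087 for Arnt with time, -0.31 to 0.11 for Ahr and -0.31 to 0.072 for Tiparp with time in C57BL/6J (the upper ends without C57BL/6J control 6 h replicate 2), and -0.13 to 0.19 and -0.24 to 0.0070 for Cyp1b1 in normoxia and normoxia-hyperoxia against 24 h controls. It gave -0.035 to 0.092 for Tiparp in normoxia-hyperoxia against 24 h controls, -0.20 to 0.12 for Cyp1a1 and -0.31 to 0.067 for Cyp1b1 in normoxia-hyperoxia against normoxia, -0.30 to 0.29 for the strain difference of Cyp1a1 in normoxia-hyperoxia and -0.0375 to 0.29 for Cyp1a1 in normoxia-hyperoxia against 6 h controls. The causes were not tested. With 3 libraries a group and 3 to 40 counts of Cyp1a1 in the oxygen slices, small changes of it were not detectable at this depth.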
